A study of Mus musculus with 30 samples.

Results

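Transcript levels of 7 channel genes were compared between hearts labelled CM-RevDKO and floxed control hearts. The genes were chosen by symbol in the deposited expression table, and all 7 were found among its 13575 genes. They were Scn4a and Scn4b, which encode sodium channel subunits, Hcn2 and Hcn4, which encode pacemaker channels, and Gja1, Gja5 and Gjc1, which encode connexins of gap junctions. All 7 also passed a filter on low values (a mean of at least 0.5 FPKM over the libraries) and are among the 13256 genes tested.

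The series concerns the role in the heart of REV-ERBα and REV-ERBβ, nuclear receptors that repress transcription as part of the circadian clock. RNA came from 6 heart libraries of mice aged 2 months, 3 per group, taken at ZT10, which is 10 hours after lights on, after the atria had been trimmed away. Mice of both groups carried floxed alleles of Rev-erba and Rev-erbb. The protocol given for the ChIP samples of the series describes these lines as positive or negative for aMHC-Cre, a Cre recombinase driven by the alpha myosin heavy chain promoter, which is active in cardiomyocytes. In CM-RevDKO hearts both receptors are thus meant to be lost from cardiomyocytes, while other heart cells keep them. If Cre was present in 1 group only, what Cre does by itself and what the lost receptors do cannot be told apart. The labels do not say whether the replicates are separate animals, so p-values measure the spread between these libraries only.

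Voltage-gated sodium channels carry the inward current that starts the action potential of the working heart muscle, and their beta subunits modify the gating and placement of the pore-forming alpha subunit. Pacemaker channels of the HCN family open when the membrane becomes more negative, bind cyclic AMP and carry the funny current of the sinus node, and are found at lower levels in ventricular muscle. Connexins form the gap junctions through which current passes from a cell to its neighbour: connexin 43 (Gja1) in the ventricular wall, connexin 40 (Gja5) in the atria, the ventricular conduction system and arterial endothelium, and connexin 45 (Gjc1) in nodal and conduction tissue.

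Values were read as FPKM, although the table names no unit. In FPKM, mapped fragments are divided by transcript length and by the size of the library, so levels can be set side by side between genes. Sequencing depth is unknown. The number of genes at 1 FPKM or more was 11967 to 12395 per library. Nr1d1, the gene of REV-ERBα, stood at 23.9, 22.6 and 15.0 FPKM in control replicates 1, 2 and 3 and at 55.6, 47.4 and 47.9 FPKM in CM-RevDKO replicates 1, 2 and 3, against the direction of its label. Nr1d2, the gene of REV-ERBβ, stood at 40.3, 30.6 and 36.3 FPKM in the controls and at 28.8, 26.6 and 26.7 FPKM in the libraries labelled CM-RevDKO. A gene-level value that includes exons outside the deleted part does not check the deletion. Arntl, the BMAL1 gene and a known target of REV-ERB repression, stood at 0.295, 0.145 and 0.0831 FPKM in the controls and at a mean of 12.8 ± 0.229 FPKM (SD, n = 3) in the libraries labelled CM-RevDKO, with no overlap (log2 fold change 3.56, adjusted p = 1.72e-05 by limma). That difference runs in the direction of the labels. Every direction below rests on the labels.

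The promoter windows of the 4 genes that stood lower in every library labelled CM-RevDKO are shown for comparison only. Arntl, the target of REV-ERB repression named above, stood higher, which is the opposite direction. Whether either receptor acts on these 4 genes was not tested. Each holds the 250 bases before the start site that RefSeq lists on GRCm38.p6, 5′ to 3′ on the gene's strand, and capitals mark each match to AGGTCA, the half-site bound by many nuclear receptors, on either strand.
Hcn2 (chr10:79716384-79716633, plus strand): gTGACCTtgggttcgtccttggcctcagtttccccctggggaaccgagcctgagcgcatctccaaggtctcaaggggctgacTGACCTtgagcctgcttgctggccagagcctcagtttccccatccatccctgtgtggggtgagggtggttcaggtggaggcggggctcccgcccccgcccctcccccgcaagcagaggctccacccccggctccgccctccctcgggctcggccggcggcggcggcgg
Scn4a (chr11:106349391-106349640, minus strand): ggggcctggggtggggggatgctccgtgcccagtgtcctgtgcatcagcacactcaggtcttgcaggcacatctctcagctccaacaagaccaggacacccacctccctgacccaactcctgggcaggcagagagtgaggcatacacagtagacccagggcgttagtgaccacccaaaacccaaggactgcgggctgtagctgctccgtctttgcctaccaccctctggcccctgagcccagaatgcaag
Scn4b (chr9:45138374-45138623, plus strand): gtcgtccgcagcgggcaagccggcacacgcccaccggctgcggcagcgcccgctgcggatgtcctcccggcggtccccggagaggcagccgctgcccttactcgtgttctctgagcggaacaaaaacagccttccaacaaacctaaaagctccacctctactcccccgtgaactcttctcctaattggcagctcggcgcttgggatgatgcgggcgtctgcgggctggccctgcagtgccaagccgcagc
Hcn4 (chr9:58822699-58822948, plus strand): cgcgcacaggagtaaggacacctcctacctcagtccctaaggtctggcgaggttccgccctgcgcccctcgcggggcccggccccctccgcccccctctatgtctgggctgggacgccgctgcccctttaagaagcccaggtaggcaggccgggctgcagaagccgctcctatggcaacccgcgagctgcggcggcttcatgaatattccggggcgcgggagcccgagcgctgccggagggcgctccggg

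The Hcn2 window held 2 matches to AGGTCA, both on the minus strand, beginning 249 and 168 bases before the listed start. At least 1 match was found in 14% of the 32851 windows of this length in the RefSeq table, and 2 or more in 1.36%. The windows of Scn4a, Scn4b, Hcn4, Gja1 and Gja5 held none, and Gjc1 had no window. None of the 6 windows held the RORE, the half-site with an A/T-rich extension that contains AGGTCA (0.32% of all windows), the D-box TTATGTAA or TTACGTAA (0.931%) or the E-box CACGTG (6.02%), on either strand. A match of letters is a description of the sequence and not a binding site. The start listed for Scn4a lies inside the annotated gene.

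Of the 7 channel genes, 2 fell in the libraries labelled CM-RevDKO, Hcn2 and Scn4a, and none rose, where 1.24% of all genes tested fell and 1.26% rose (2.50% in either direction). Scaled without the mitochondrially encoded genes, 212 genes fell and 118 rose, in place of 165 and 167. In 4 of the 7, Hcn2, Hcn4, Scn4a and Scn4b, all 3 libraries labelled CM-RevDKO lay below all 3 controls, where 10.5% of all genes tested did so and 23.1% did not overlap in either direction. The groups overlapped for all 3 connexins. The median log2 fold change of the 7 was -0.65, beside 0.02 over all genes tested.

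**Figure D1:**
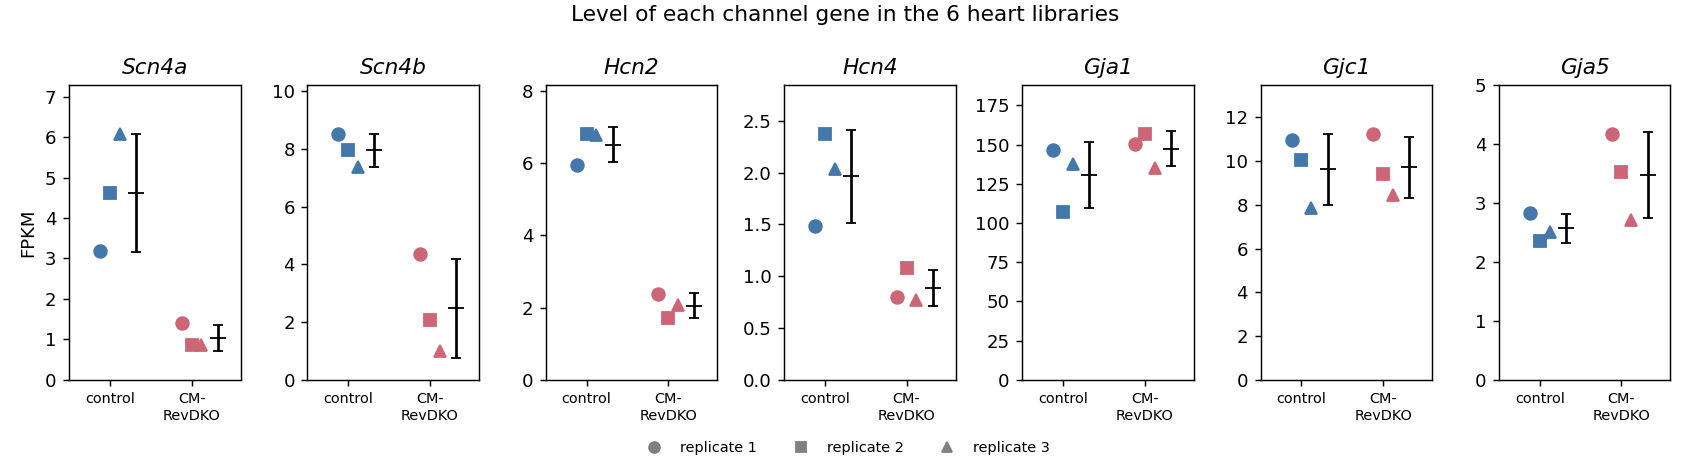
FPKM of each channel gene in each library, on linear axes that begin at 0 and differ between panels. Circles, squares and triangles are replicates 1, 2 and 3, and the bars give the mean and SD of 3 libraries. The groups stand apart for Scn4a, Scn4b, Hcn2 and Hcn4 and overlap for Gja1, Gjc1 and Gja5.

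Among the sodium channel genes, Scn4a encodes Nav1.4, the alpha subunit best known as the sodium channel of skeletal muscle (ENSMUSG00000001027, chr11:106317545-106365559, mm10). It stood at 3.17, 4.62 and 6.08 FPKM in control replicates 1, 2 and 3 and at 1.41, 0.852 and 0.852 FPKM in CM-RevDKO replicates 1, 2 and 3. The controls spread 1.92-fold from lowest to highest, and the lowest of them was still above the highest library labelled CM-RevDKO. Mean levels were 4.62 ± 1.45 and 1.04 ± 0.322 FPKM (SD, n = 3), 4.45-fold lower in the libraries labelled CM-RevDKO. Scn4a fell by 1.44 on the scale of log2(FPKM + 1), with a standard error of 0.21 and adjusted p = 0.0174 by limma. This scale understates changes of genes with low values: with 0.1 added in place of 1, the log2 fold change was -2.04. The call ended without control replicate 2 (adjusted p = 0.0758), control replicate 3 (0.0623) or CM-RevDKO replicate 2 (0.0734), and with the atrial marker level as a covariate (0.122). That level was the mean log2(FPKM + 1) of Myl7, Myl4, Sln and Bmp10. Myl7, Myl4 and Sln stood higher in every library labelled CM-RevDKO than in any control, where 12.6% of all genes tested did so. None of these 3 passed the test (adjusted p = 0.186, 0.266 and 0.0892 by limma). Because they separated the groups in these libraries, a fit with this covariate cannot cleanly tell the atrial level apart from the group.

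Scn4b encodes the beta 4 subunit (ENSMUSG00000046480, chr9:45138624-45154155). It stood at 8.52, 7.96 and 7.37 FPKM in the controls and at 4.36, 2.07 and 1.00 FPKM in CM-RevDKO replicates 1, 2 and 3. The controls were close together, while the libraries labelled CM-RevDKO spread 4.36-fold, and none of them reached the controls. Means were 7.95 ± 0.575 and 2.48 ± 1.72 FPKM (SD, n = 3), a ratio of 3.21, and the log2 fold change of -1.48 (SE 0.32) was as large as that of Scn4a but did not pass the test (adjusted p = 0.0652). Without CM-RevDKO replicate 1 it was -1.85 and passed (adjusted p = 0.0113). With the atrial marker level as a covariate it was -2.20 and did not pass (adjusted p = 0.0768 by limma).

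CM-RevDKO replicate 1, where Scn4b was highest within its group, was also the library with the most atrial and adipocyte transcript. The summed level of 11 measured atrial markers was 1777 FPKM in it, against 976 FPKM in replicate 2, 1065 FPKM in replicate 3 and 362 to 465 FPKM in the controls. Nppa alone gave 813, 589 and 630 FPKM of these sums in CM-RevDKO replicates 1, 2 and 3, and 134 to 164 FPKM in the controls. Bmp10, an atrial growth factor gene, was listed at 0 in every library but CM-RevDKO replicate 1, where it stood at 1.94 FPKM. The summed level of 5 measured adipocyte markers was 83.9, 47.0 and 11.7 FPKM in CM-RevDKO replicates 1, 2 and 3 and 9.37 to 14.5 FPKM in the controls. None of these 5 passed the test. Within its group, replicate 1 also had the highest summed macrophage, fibroblast and endothelial markers and the lowest cardiomyocyte markers. Smooth muscle and nerve markers were highest in replicate 3. Scn4a, Hcn2, Gja5 and Gjc1 were highest in replicate 1 too, and Hcn4 and Gja1 in replicate 2. The part of any of these cell types in the spread of Scn4b was not tested. In bulk RNA fewer cells of a type and less RNA per cell cannot be told apart.

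Within libraries, the ratio of Scn4b to Scn4a ran from 1.21 to 2.68 in the controls and from 1.17 to 3.09 in the libraries labelled CM-RevDKO. These ranges overlapped (exact two-sided permutation test, p = 0.80, adjusted over 4 such ratios 0.80, smallest possible p = 0.10). Scn7a, which encodes a sodium-sensing relative of these channels, averaged 3.75 FPKM in the controls and 3.80 FPKM in the libraries labelled CM-RevDKO (adjusted p = 0.971).

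Among the pacemaker channel genes, Hcn2 encodes the HCN form with the faster response of the pair measured here (ENSMUSG00000020331, chr10:79716634-79736108). It stood at 5.95, 6.81 and 6.80 FPKM in the controls and at 2.39, 1.71 and 2.07 FPKM in CM-RevDKO replicates 1, 2 and 3. The groups lay far apart: the lowest control, at 5.95 FPKM, was well above the highest library labelled CM-RevDKO, at 2.39 FPKM, and neither group spread more than 1.40-fold. Mean FPKM was 3.17-fold lower, and Hcn2 fell by 1.30 on the log2 scale (95% interval -1.59 to -1.01, adjusted p = 0.00295 by limma). Whichever of the 6 libraries was left out, Hcn2 kept its call (adjusted p of 0.00795 to 0.0209), as it did with the atrial covariate (0.0436). It ended when CM-RevDKO replicate 3 alone was set against the controls, at nearly the same log2 fold change (-1.29, adjusted p = 0.0878).

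Hcn4 encodes the main pacemaker channel of the sinus node (ENSMUSG00000032338, chr9:58822949-58863175). It stood at 1.49, 2.37 and 2.04 FPKM in the controls and at 0.800, 1.08 and 0.774 FPKM in the libraries labelled CM-RevDKO. The groups did not overlap, although its mean was the lowest of the 7 genes in either group. Mean FPKM was 2.22-fold lower, and the log2 fold change of -0.65 (SE 0.17, 95% interval -1.04 to -0.26) did not pass the test (adjusted p = 0.105). It did not pass in any of the 15 alternatives that gave it a value.

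Hcn2 and Hcn4 together stood at 8.48 ± 0.926 FPKM in the controls and, in the libraries labelled CM-RevDKO, at 2.94 ± 0.216 FPKM (SD, n = 3). Hcn2 made up 80.0, 74.2 and 76.9% of that sum in the controls and 74.9, 61.2 and 72.8% in CM-RevDKO replicates 1, 2 and 3. The ratio of Hcn4 to Hcn2 within a library ran from 0.250 to 0.348 in the controls and from 0.335 to 0.633 in the libraries labelled CM-RevDKO, with 1 control within the upper range (exact two-sided permutation test, p = 0.20, adjusted over 4 ratios 0.40). A difference in response between the pair was not shown at this number of libraries.

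**Figure D2:**
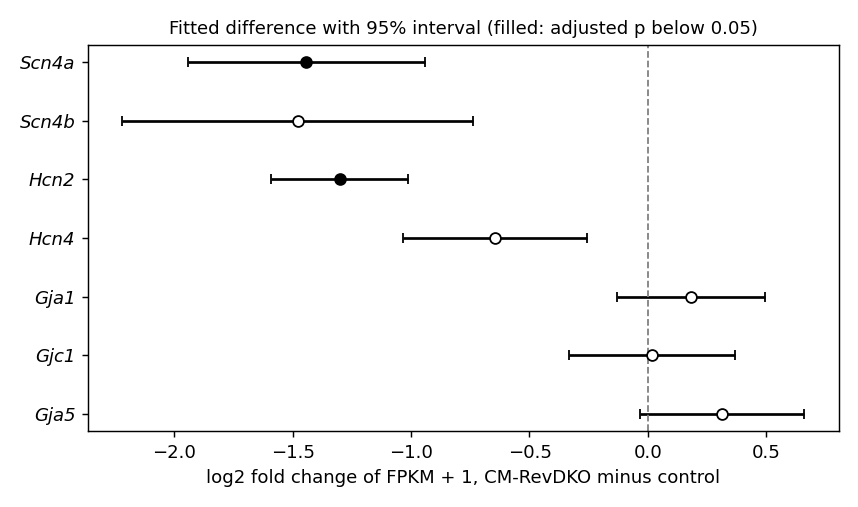
Fitted log2 fold change of each channel gene (CM-RevDKO minus control, on log2(FPKM + 1)) with its 95% interval. Filled points, Scn4a at -1.44 and Hcn2 at -1.30, passed the adjusted threshold of 0.05. The intervals of the 3 connexins include 0.

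The connexin genes showed no difference that passed the test. Gja1, the connexin 43 gene (ENSMUSG00000050953, chr10:56377300-56390419), stood at 147, 107 and 138 FPKM in the controls and at 151, 157 and 135 FPKM in the libraries labelled CM-RevDKO. It was by far the highest of the 7, and its groups overlapped. The log2 fold change was 0.18 with a 95% interval of -0.13 to 0.50 (adjusted p = 0.545). With each library left out it ran from 0.048, without control replicate 2, the lowest library, to 0.27, without control replicate 1. It was 0.043 with quantile normalization, 0.055 with the atrial covariate and 0.059 without CM-RevDKO replicates 1 and 2.

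Gjc1, the connexin 45 gene (ENSMUSG00000034520, chr11:102799477-102819686), stood at 11.0, 10.0 and 7.84 FPKM in the controls and at 11.2, 9.43 and 8.45 FPKM in the libraries labelled CM-RevDKO. Both groups covered nearly the same range. The log2 fold change was 0.016 with a 95% interval of -0.33 to 0.37 (adjusted p = 0.977), and its sign changed with the scaling.

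Gja5, the connexin 40 gene (ENSMUSG00000057123, chr3:97032402-97053634), stood at 2.84, 2.35 and 2.51 FPKM in the controls and at 4.17, 3.53 and 2.71 FPKM in CM-RevDKO replicates 1, 2 and 3. It was highest in CM-RevDKO replicate 1, and replicate 3 lay within the range of the controls. The log2 fold change was 0.31 with a 95% interval of -0.03 to 0.66 (adjusted p = 0.344). With each library left out it ran from 0.20, without CM-RevDKO replicate 1, to 0.44, without CM-RevDKO replicate 3. It was 0.059 without CM-RevDKO replicates 1 and 2, and 0.071 with the atrial marker level as a covariate. The atrial markers given above were highest in CM-RevDKO replicate 1. The summed level of 8 arterial endothelial markers was 31.0 to 42.2 FPKM in the controls and 39.4 to 43.3 FPKM in those labelled CM-RevDKO, and the part of either cell type in Gja5 was not tested. RefSeq places the gene 4930573H18Rik across part of Gja5, and it is not known here whether the counting used strand.

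Gja1 made up 83.2 ± 3.73% of the summed FPKM of the 6 measured connexin genes in the controls against 82.9 ± 1.03% (SD, n = 3) in those labelled CM-RevDKO. The ratio of Gja5 to Gja1 ran from 0.0182 to 0.0220 and from 0.0201 to 0.0277 (exact two-sided permutation test, p = 0.20, adjusted over 4 ratios 0.40). The ratio of Gjc1 to Gja1 ran from 0.0568 to 0.0937 and from 0.0602 to 0.0746 (p = 0.60 by the same exact test, adjusted 0.80). Neither ratio separated the groups.

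**Figure D3:**
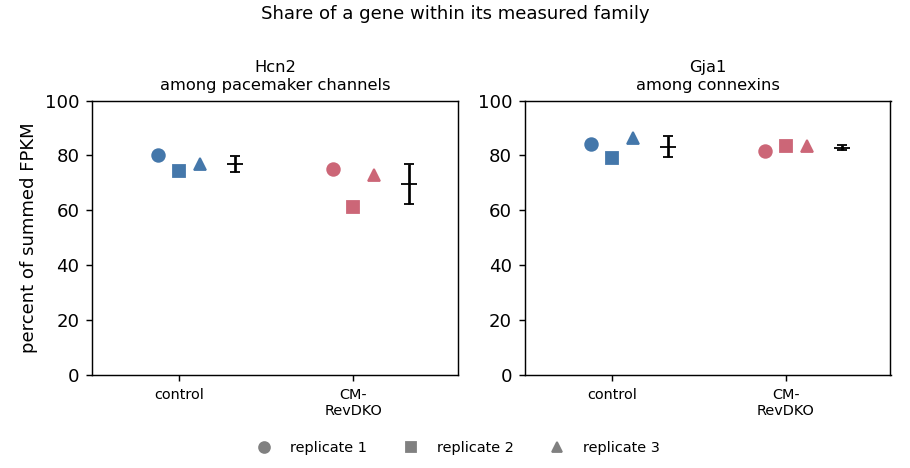
Share of Hcn2 in the summed FPKM of the 2 measured pacemaker channel genes and of Gja1 in that of the 6 measured connexin genes, in percent, by library. Symbols are replicates 1, 2 and 3, bars the mean and SD of 3 libraries. The share of Gja1 stood between 79.1 and 86.3% in all 6 libraries.

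The order of the levels differed between the groups below Gja1 and Gjc1, which stood first and second in both. In the controls Scn4b, Hcn2, Scn4a, Gja5 and Hcn4 followed, at means of 7.95, 6.52, 4.62, 2.57 and 1.96 FPKM. The ranges of Gjc1 and Scn4b, of Hcn2 and Scn4a, and of Gja5 and Hcn4 overlapped. In the libraries labelled CM-RevDKO Gja5 came next at 3.47 FPKM, followed by Scn4b, Hcn2, Scn4a and Hcn4 at 2.48, 2.06, 1.04 and 0.886 FPKM. There the ranges of Gja5 and Scn4b, Scn4b and Hcn2, and Scn4a and Hcn4 overlapped.

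Of 57 further genes measured from 6 lists of related genes, 55 were tested, 2 fell and none rose, with a median log2 fold change of -0.02. Over all genes tested the median was 0.02, and 1.24% fell and 1.26% rose. In 3 alternatives 1 of the related genes rose: Popdc2 without CM-RevDKO replicate 1, and the cardiac homeobox factor gene Nkx2-5 without CM-RevDKO replicate 3 (adjusted p = 0.0421) or with a mean of at least 5 FPKM required (0.0464). Ptpn3, a tyrosine phosphatase with a FERM domain, was the call among 13 tested sodium channel partners. It fell from 14.3, 13.1 and 13.3 FPKM in the controls to 5.44, 4.96 and 5.95 FPKM in those labelled CM-RevDKO (log2 -1.18, adjusted p = 0.00187). Hopx, a homeodomain cofactor expressed in the conduction system and muscle, was the call among 16 transcription factors of conduction tissue. It fell from 215, 211 and 192 FPKM to 103, 99.2 and 87.5 FPKM (log2 -1.09, adjusted p = 0.00218). For both, every library labelled CM-RevDKO lay below every control by a wide gap.

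None of the other 4 lists held a member that passed. Of 5 tested genes around pacemaker channels, Popdc2, a cyclic AMP-binding membrane protein gene, had means of 112 and 157 FPKM (adjusted p = 0.118, and 0.0261 without CM-RevDKO replicate 1). Of 2 tested connexin genes outside the 7, Gja4 (connexin 37) stood at 7.04 and 8.20 FPKM (adjusted p = 0.449). The other, Gja3 (connexin 46), stood at 5.96, 6.75 and 5.46 FPKM in the controls and at 9.60, 9.38 and 7.91 FPKM in the libraries labelled CM-RevDKO; its groups did not overlap, and it was also not past the test (log2 fold change 0.50, adjusted p = 0.0832). Of 18 genes of the intercalated disc, where gap junctions and sodium channels sit, Ctnna1 (alpha-catenin) stood at 113 and 146 FPKM (adjusted p = 0.0764), with a list median of -0.07. For Popdc2, Gja3 and Ctnna1 every library labelled CM-RevDKO lay above every control, where 12.6% of all genes tested did so.

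**Figure D4:**
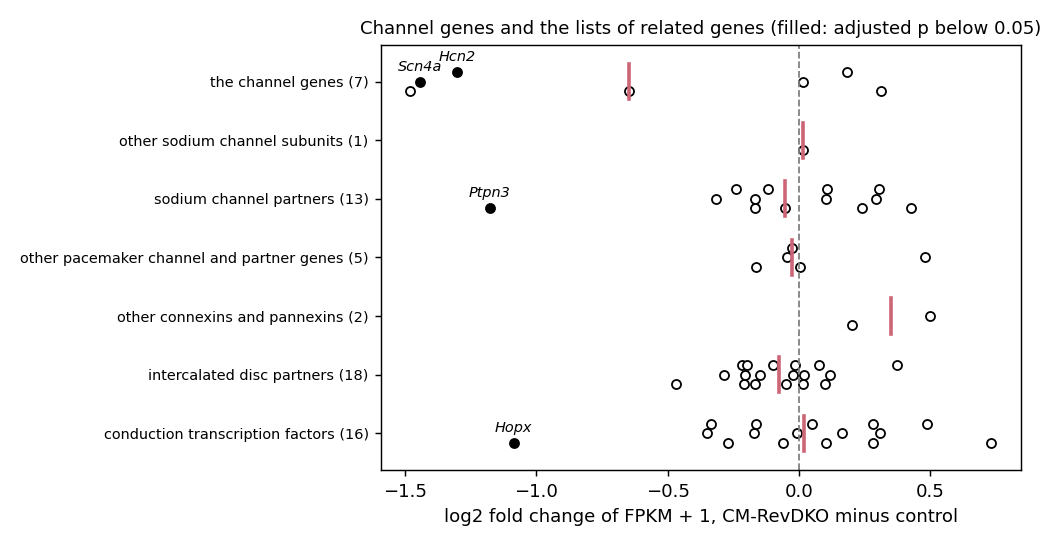
Log2 fold change (CM-RevDKO minus control) of the channel genes and of the 6 lists of related genes, with the number tested in brackets and the list median as a red bar. Points are spread vertically for legibility, and filled points passed the adjusted threshold of 0.05. The 4 values below -1 other than that of Scn4b are those of Scn4a, Hcn2, Ptpn3 and Hopx.

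Cardiomyocyte transcripts were high in all 6 libraries, with a summed level of 10 defining markers of 27970 to 30675 FPKM in the controls and 28825 to 32475 FPKM in those labelled CM-RevDKO. Mybpc3, myosin-binding protein C, was the marker that rose, from 532 to 831 FPKM (adjusted p = 0.0469). Of 13 skeletal muscle markers, relevant to Scn4a, 2 were measured, at a summed level of 2.68 to 5.02 and 2.89 to 4.14 FPKM, and neither passed the test. Of 10 markers of the conduction system, relevant to Hcn4 and the connexins, 5 were measured. Kcne1, a potassium channel beta subunit, was the only one of these 5 past the test, and rose from 6.96 to 42.3 FPKM (adjusted p = 0.00130 by limma). The nodal factors Shox2 and Isl1 were not among the measured ones. Of 11 measured atrial markers 10 were tested, and only Nppa passed, rising from 147 to 677 FPKM (adjusted p = 7.37e-04 by limma).

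No gene nearest to Hcn2, Hcn4, Scn4a or Scn4b on either side, among those measured and listed by RefSeq, passed the test. Polrmt, the mitochondrial RNA polymerase gene, lies 17 bases beyond the end of Hcn2 and stood at 6.50 and 5.61 FPKM (log2 fold change -0.19, adjusted p = 0.530). Reads at that border could be shared between the genes. Bsg, on the other side of Hcn2, stood at 732 and 728 FPKM (adjusted p = 0.982).

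By Pearson correlation of log2(FPKM + 1) over the 6 libraries, the genes most like Hcn2 among 6596 compared, all with a mean of at least 5 FPKM, were Nudt4 (0.996), Atp2a2 (0.995) and Arl8a (0.995). Those most like Scn4a were Clk2 (0.990), Atp2a2 (0.988) and Gmpr (0.985). These 6 points fall into the 2 groups, which any gene that differs between the groups shares, and 93 genes exceeded 0.95 with Hcn2 and 37 with Scn4a. Nudt4 and Arl8a passed the test themselves, at adjusted p = 0.00537 and 0.0103 by limma. Atp2a2, Gmpr and Clk2 did not, at adjusted p = 0.0673, 0.0803 and 0.518 by the same test.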

How the data were processed

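The authors deposited values, read here as FPKM, for 13575 genes in 6 libraries. The submitters' processing notes name HISAT2, StringTie and mm10, without versions; for annotation and strand the sources used here give nothing. The header names no unit, and TPM is possible. Depth could not be recovered: low values did not repeat in steps (in each of 15 library pairs, of 466 to 876 genes under 1 FPKM, no more than 4 had an equal log2 ratio to 4 decimals). The 24 ChIP and Cut&Run samples were not analysed here.

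Genes that averaged 0.5 FPKM or more were fitted on log2(FPKM + 1) with limma 3.58.1 in R 4.3.3 (intensity trend, group as the only term), with Benjamini-Hochberg adjustment over all 13256 genes and a threshold of 0.05. Ratios within libraries used the exact permutation test, which with 3 against 3 cannot go below 0.10. Motifs were matched with Python 3.11.15. Symbols of all 7 genes matched RefSeq on GRCm38.p6 (mm10), and 6 had a promoter window.

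The genes and lists were chosen with earlier results of these data known. Named are the 7 genes, up to 3 members past the test of each list of related genes or markers or else the highest member, and the 3 most correlated genes. The remaining subunits and flanking genes were added later, and Arntl, Gja3 and Nkx2-5 after their values were seen. Lists of adipocyte, skeletal muscle, endothelial, arterial endothelial, smooth muscle, fibroblast, nerve and macrophage markers had no member past the test. Some sodium channel genes are not reported here.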

Additional observations from a re-analysis of the deposited data

How the results depend on the processing

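Hcn2 and Scn4a kept their calls under another pseudocount, no filter, all 3 other scalings and no intensity trend. With a mean of at least 5 FPKM, Scn4a, Hcn2, Hcn4 and Gja5 were not tested. With each library left out, Scn4a ran from -1.64 to -1.26 on the log2 scale, Scn4b from -1.85 to -1.14 and Gjc1 from -0.11 to 0.11, and the count of all genes past the test from 120 to 322. Without CM-RevDKO replicates 1 and 2, where the remaining library is assumed to vary like the controls, 21 genes passed, 1 of them from the related lists; Hcn2 (-1.29, adjusted p = 0.0878) and Scn4a (-1.57, 0.192) did not, and Scn4b did (-2.16, 0.0184). With the atrial covariate, which itself differed between the groups, 41 genes passed, and Scn4a was at -1.70 (adjusted p = 0.122). Gjc1 was at -0.0086 with quantile normalization, -0.047 scaled without mitochondrially encoded genes, -0.0062 with median-ratio factors, -0.15 with the atrial covariate and -0.16 without CM-RevDKO replicates 1 and 2. Scn7a, near 0 throughout, was at -0.037 scaled without mitochondrially encoded genes, -0.0020 with median-ratio factors, -0.026 with the atrial covariate, -0.13 without CM-RevDKO replicates 1 and 2, and from -0.088 to 0.090 with each library left out. Leaving out a library moved the difference in the log2 ratio of Scn4b to Scn4a between -0.074 and 0.62, and that of Gjc1 to Gja1 between -0.35 and 0.0074. The causes were not tested.

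The labels do not say whether same-numbered libraries share more than a number. Their deviations from the group means correlated at -0.037, -0.064 and 0.093. Those of differently numbered libraries correlated at -0.089 to 0.109. With deviations taken from means of only 3 libraries, these values cannot decide whether the numbers mark a pairing. With the replicate number as a block 115 genes passed, Hcn2 held (adjusted p = 0.0319) and Scn4a was at -1.44 without passing (adjusted p = 0.0848). Depth is unknown and sets no limit that can be stated; 3 libraries a group do.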
